A study of Rattus norvegicus with 15 samples.

Results

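The genes described here are 10 marker genes of leukocytes, measured in rat kidney: C1qa, C1qb, Cd68, Fcer1g, Laptm5 and Lyz2 for macrophages, Cd3e, Cd8a and Sh2d2a for T cells, and Ptprc, the common leukocyte antigen CD45. Their probe sets were found by the gene symbol in the annotation of each array platform, and 18 of the 26379 probe sets of 3 array designs (A, B and C) carried one of these symbols (A had 7, B had 6 and C had 5). Total RNA of kidneys of 5-week-old rats was hybridised to 15 arrays, 5 per design, numbered 1 to 5. On B and C, kidneys 4 and 5 were of a congenic strain for chromosome 10 on the Dahl salt-sensitive background (n = 2), and kidneys 1 to 3 came from Dahl salt-sensitive rats (Dahl S, n = 3), which are inbred and become hypertensive when fed much salt. Kidneys 4 and 5 of design A are described as Dahl S although the same numbers are congenic on B and C, so their strain is unsettled and they entered no test. For the diet, the donor strain, the extent of the chromosome 10 segment and any pooling of animals, nothing is stated in the sources used here. Nor do the labels say that a number marks the same kidney on all designs, or that each kidney was from another animal, so that a p-value here reflects only the spread between these arrays, which may be technical.

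Leukocytes enter the kidney from the blood, and macrophages also live there as resident cells between the tubules, where they take up debris and shape inflammation. C1q, built from the chains of C1qa, C1qb and C1qc, starts the classical complement pathway and is made largely by macrophages. T cells recognise antigen through a receptor whose signal is carried by the CD3 chains, and infiltrating T cells and macrophages are known from kidneys of Dahl S rats on a high-salt diet.

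Values are the deposited signal intensities on a linear scale, already scaled per array. The median signal per array lay between 294.5 and 334.3 on A, 472.8 and 519.5 on B, and 491.3 and 524.4 on C. For the tests, signals under the 25th percentile of their design were set to that floor (A 85.1, B 140.1, C 153.6) before log2 was taken. A filter kept probe sets whose 5-array mean was at least the design's median value (A 319.5, B 485.8, C 510.3). Of the 18 leukocyte marker probe sets 9 passed this filter, 7 of 8 for macrophages, 2 of 6 for T cells and 0 of 4 for Ptprc. The tissue was checked against kidney genes. On array A all 19 probe sets of the proximal tubule list passed the filter, as did 18 of 19 of the loop of Henle and distal tubule list, with Slc34a1 (rc_AI105198_i_at), the phosphate cotransporter of the proximal tubule, between 33515.3 and 62655.2.

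The sequences around the start of 5 macrophage genes are shown because signals of these genes varied together between the kidneys, as described below. RefSeq promoter windows of 300 bases (250 before and 50 after the gene's start, rat assembly GRCr8) were found for 9 of the 10 genes, and those of C1qa, C1qb, Laptm5, Lyz2 and Cd68 are printed 5′ to 3′ on the gene's strand. Capitals mark GGAAGT, or its reverse complement ACTTCC, a core that fits many ETS family factors including PU.1, a regulator of macrophage genes. The motif was chosen after the sequences were seen.
C1qa, chr5:154419884-154420183, minus strand: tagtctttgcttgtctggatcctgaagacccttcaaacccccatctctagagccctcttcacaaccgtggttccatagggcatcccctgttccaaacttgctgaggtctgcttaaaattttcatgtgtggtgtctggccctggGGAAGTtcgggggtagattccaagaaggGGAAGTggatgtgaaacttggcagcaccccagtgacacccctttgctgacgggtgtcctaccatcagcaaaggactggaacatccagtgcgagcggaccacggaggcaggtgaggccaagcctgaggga
C1qb, chr5:154407778-154408077, minus strand: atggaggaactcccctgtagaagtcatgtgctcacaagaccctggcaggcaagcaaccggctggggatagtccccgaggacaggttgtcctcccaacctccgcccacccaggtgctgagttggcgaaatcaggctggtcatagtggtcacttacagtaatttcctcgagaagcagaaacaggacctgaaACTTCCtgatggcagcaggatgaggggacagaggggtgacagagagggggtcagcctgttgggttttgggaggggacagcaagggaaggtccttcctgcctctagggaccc
Laptm5, chr5:148371630-148371929, plus strand: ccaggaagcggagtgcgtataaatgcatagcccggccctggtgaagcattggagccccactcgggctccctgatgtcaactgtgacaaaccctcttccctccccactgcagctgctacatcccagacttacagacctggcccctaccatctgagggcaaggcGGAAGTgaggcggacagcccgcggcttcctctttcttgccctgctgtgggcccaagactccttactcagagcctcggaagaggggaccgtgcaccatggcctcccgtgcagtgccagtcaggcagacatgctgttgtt
Lyz2, chr7:54797962-54798261, minus strand: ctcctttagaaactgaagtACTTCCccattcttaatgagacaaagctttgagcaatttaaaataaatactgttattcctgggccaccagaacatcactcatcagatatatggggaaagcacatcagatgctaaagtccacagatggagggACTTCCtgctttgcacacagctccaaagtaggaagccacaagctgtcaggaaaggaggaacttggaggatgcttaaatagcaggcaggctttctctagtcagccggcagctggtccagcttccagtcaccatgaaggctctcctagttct
Cd68, chr10:54882392-54882691, minus strand: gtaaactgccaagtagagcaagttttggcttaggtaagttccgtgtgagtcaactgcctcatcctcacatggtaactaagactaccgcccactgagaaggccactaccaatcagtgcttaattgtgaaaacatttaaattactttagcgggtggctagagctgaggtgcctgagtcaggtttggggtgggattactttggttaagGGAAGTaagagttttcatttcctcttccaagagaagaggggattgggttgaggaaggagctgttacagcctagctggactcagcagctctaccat
GGAAGT, searched on both strands, was in the windows of 5 of the 5 macrophage genes that had a window, of Ptprc and of Cd3e, and in neither Cd8a nor Sh2d2a. No window was found for the macrophage gene Fcer1g. Among all 33469 RefSeq windows of that length in the table, 22.58% held it. C1qa and Lyz2 had 2 matches each, and C1qb, Laptm5 and Cd68 had 1 each. A match describes the letters and is no evidence of binding.

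The macrophage genes differed among the Dahl S kidneys in the same order on all 3 designs, kidney 1 highest and kidney 2 lowest. C1qa (rc_AA996499_at, array B, chromosome 5) had a signal of 1491.3 and 2176.7 in congenic kidneys 4 and 5, against 2758.4, 1808.9 and 2334.5 in Dahl S kidneys 1, 2 and 3. Kidney 4 was the lowest of the 5 and kidney 2 the next, and the strains overlapped. C1qb (X71127_at, array A, chromosome 5) had 695.3 and 846.2 in kidneys 4 and 5 of unsettled strain, against 1128.7, 767.0 and 919.3 in Dahl S kidneys 1, 2 and 3. The order of the 5 kidneys was thus the same for these C1q chains, which lie close together on chromosome 5 and were measured on different arrays. A second C1qb probe set of the same accession (X71127_g_at) did not pass the filter, with 289.6 and 283.7 in kidneys 4 and 5, against 509.5, 105.1 and 250.7 in Dahl S kidneys. It kept the order of the Dahl S kidneys and placed kidneys 4 and 5 level with each other.

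Lyz2, which encodes the lysozyme of macrophages and neutrophils, spread more widely (rc_AA892775_at, array A, chromosome 7). Its signal was 4730.6 and 6201.9 in kidneys 4 and 5 of unsettled strain, against 6380.0, 3072.3 and 5320.1 in Dahl S kidneys 1, 2 and 3. Kidney 2 stood lowest and the highest Dahl S value was 2.08 times its value. Laptm5, a lysosomal membrane protein of blood cells, was measured by a probe set on each of 2 designs. On array B (rc_AA925353_at, chromosome 5) it had 1412.6 and 2861.9 in congenic kidneys 4 and 5, against 2967.4, 1515.2 and 2775.5 in Dahl S kidneys. On array C (rc_AI234133_at) it had 394.1 and 555.1 in congenic kidneys, against 902.1, 451.4 and 802.6 in Dahl S kidneys. Both probe sets put kidneys 4 and 2 lowest. They differed for kidney 5, which lay among the high Dahl S values on array B and between kidneys 2 and 3 on array C.

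Cd68, a lysosomal glycoprotein used to stain macrophages, and Fcer1g, the signalling gamma chain shared by Fc receptors, spread less. Cd68 (rc_AI177761_at, array C) had 1743.2 and 2393.9 in congenic kidneys 4 and 5, against 2298.6, 1628.1 and 2023.3 in Dahl S kidneys. It is the 1 gene of the 10 on chromosome 10, at chr10:54882392-54882691 for its promoter window in GRCr8, and whether that position lies in the congenic segment was not tested. Fcer1g (rc_AA957422_at, array B, chromosome 13) had 5542.0 and 5404.8 in congenic kidneys 4 and 5, against 6696.4, 4611.8 and 5664.1 in Dahl S kidneys. Here both congenic values lay inside the Dahl S range and close to kidney 3.

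**Figure D1:**
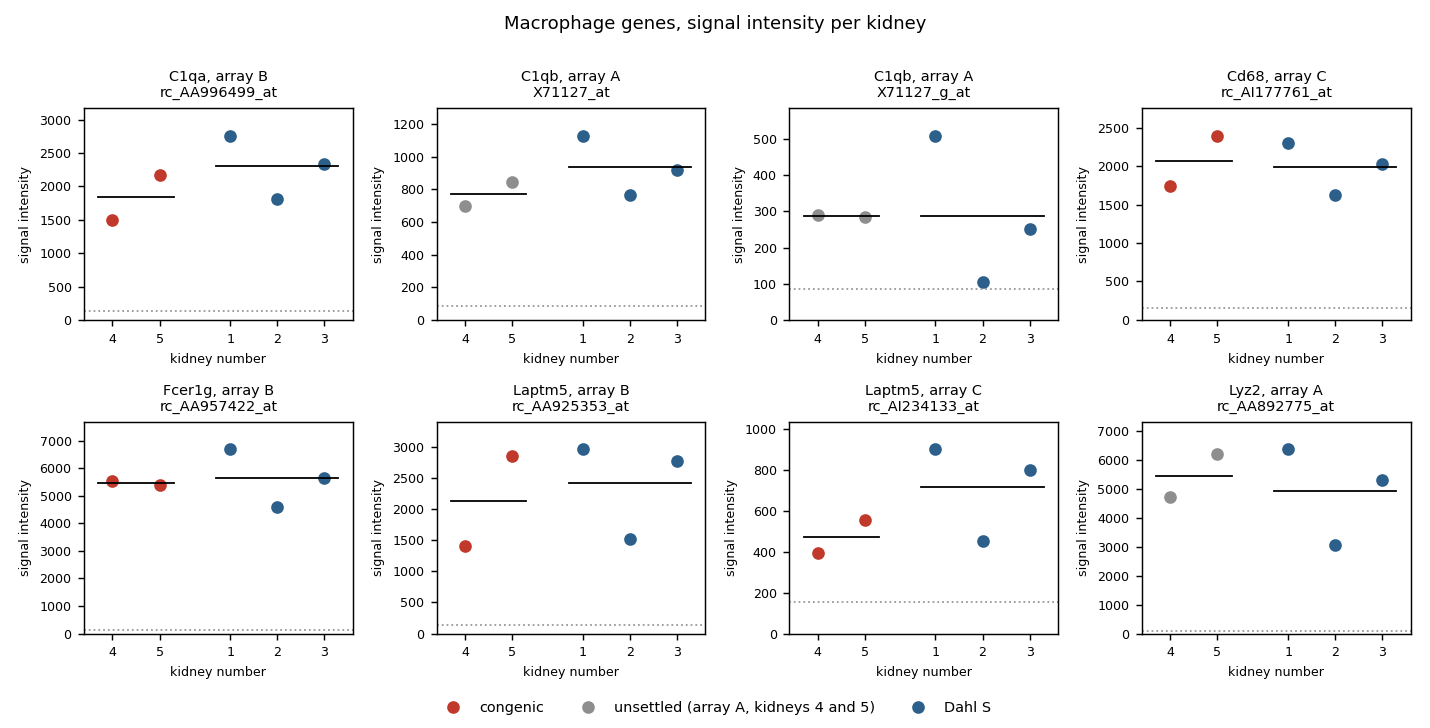
Signal intensity (vertical axis, linear from 0) of the 8 macrophage probe sets in kidneys 4 and 5 (red, congenic on arrays B and C; grey, strain unsettled on array A) and in Dahl S kidneys 1 to 3 (blue). Black lines are group means and dotted lines the floor of the design; kidney 2 is the lowest Dahl S kidney in all 8 panels.

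Counted over the probe sets that passed the filter, Dahl S kidneys stood in the order 1, 3, 2 from high to low for 7 of 7 macrophage probe sets, 2 on A, 3 on B and 2 on C. Of all probe sets that passed, 11.8% did so on A, 17.5% on B and 13.5% on C. Kidney 2 was the lowest Dahl S kidney for 30.7% of all probe sets on A, 36.1% on B and 34.5% on C. The median deviation of the 7 macrophage probe sets from their own Dahl S mean, on the log2 scale, was 0.28 in kidney 1, −0.33 in kidney 2 and 0.04 in kidney 3. Over all probe sets of a design the median deviation of a Dahl S kidney lay between −0.03 and 0.03. In bulk tissue fewer macrophages and less of these RNAs per macrophage cannot be told apart.

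The spread within Dahl S was large for part of these genes. The SD of the log2 signal over the 3 Dahl S kidneys was 0.55 for Lyz2, 0.53 for Laptm5 on array B and 0.53 for Laptm5 on array C, each above that of at least 95.99% of the probe sets that passed the filter on its design. For C1qb (X71127_at), Fcer1g, C1qa and Cd68 it was between 0.25 and 0.31, above that of 73.09% to 83.88%. The medians over all probe sets that passed were 0.19 on A, 0.16 on B and 0.16 on C. For the T cell genes Sh2d2a and Cd3e (rc_AI178182_at) the SD was 0.12 each, above that of 34.3% on B and 34.59% on C.

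Kidneys 4 and 5 also differed from each other in the macrophage genes. Kidney 4 was below kidney 5 for 6 of the 7 probe sets that passed, Fcer1g being the exception, whereas over all probe sets that passed this held for 58.3% on A, 48.4% on B and 50.3% on C. The median log2 deviation from the Dahl S mean was −0.60 and −0.05 in congenic kidneys 4 and 5 on array B, and −0.49 and −0.01 on array C. In kidneys 4 and 5 of unsettled strain on array A it was −0.20 and 0.13. Pooled over the 3 designs it was −0.41 in kidney 4 and −0.05 in kidney 5, which mixes congenic kidneys with those of unsettled strain. Single probe sets ranged from −0.81 (Laptm5, array C) to 0.01 (Lyz2) in kidney 4, and from −0.31 (Laptm5, array C) to 0.40 (Lyz2) in kidney 5. A difference between single kidneys has no replicate and was not tested.

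**Figure D2:**
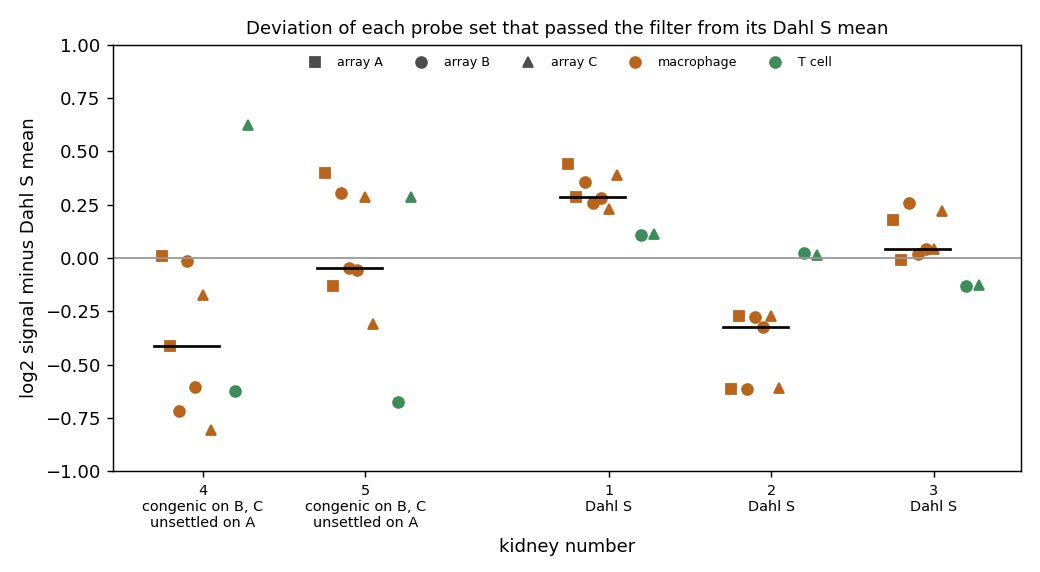
Log2 signal minus the mean of the Dahl S kidneys (vertical axis) for the 7 macrophage probe sets (orange) and the 2 T cell probe sets (green) that passed the filter, by kidney, with the symbol giving the array and a black bar the macrophage median. The macrophage medians, pooled over the 3 designs, are −0.41 and −0.05 in kidneys 4 and 5, and 0.28, −0.33 and 0.04 in kidneys 1, 2 and 3. Kidneys 4 and 5 are congenic on B and C and of unsettled strain on A. Of the T cell probe sets, that of Cd3e (array C) lies above 0 in kidneys 4 and 5 and that of Sh2d2a (array B) below. Sh2d2a was kept through its Dahl S values and had to be lower in the congenic kidneys, so nothing is read from its side.

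Other measures moved with this order on part of the designs. The 3′ over 5′ signal ratio of the GAPDH control, a measure of RNA integrity and labelling, was 1.07 and 1.17 in congenic kidneys 4 and 5 on array B, against 1.18, 1.11 and 1.14 in Dahl S kidneys 1, 2 and 3, the same order of the 5 kidneys as for Laptm5 on that array. On array C it was 1.05 in each congenic kidney, against 1.09, 1.09 and 1.11 in Dahl S kidneys, with kidney 3 highest. On array A it was 1.04 in kidneys 4 and 5 each, against 1.07, 1.06 and 1.07 in Dahl S kidneys. Kidney 2 thus had the lowest GAPDH ratio of the Dahl S kidneys on all 3 designs. The margin was small on A (1.0649, against 1.0704 in kidney 1 and 1.0725 in kidney 3) and on C (1.0896, against 1.0942 and 1.1078). The same ratio of the actin control did not follow the macrophage order. On array A it was 1.32 and 1.35 in kidneys 4 and 5, against 1.45, 1.55 and 1.42 in Dahl S kidneys, with kidney 2 highest. Kidney 2 was also the highest of the 5 on array C, and kidney 3 the lowest on array B. Of the blood list on array A, 6 of 7 probe sets passed the filter, none was at or below the floor on all 5 arrays, and their summed signal was 35511.7 and 40451.9 in kidneys 4 and 5, against 37337.0, 27631.4 and 36102.4 in Dahl S kidneys. Hbb (M94918mRNA_f_at), a beta chain of haemoglobin, had 20321.2 and 22710.0 there, against 21780.8, 14454.5 and 21260.3. Slc4a1 (rc_AA866414_at) of the same list had 1696.6 and 2168.9, against 1438.4, 1996.9 and 1769.0, with kidney 2 the highest Dahl S kidney. Kidney 2 was the lowest Dahl S kidney for 3 of the 6 blood probe sets on A and 1 of 2 on B. Of all probe sets that passed, this held for 30.7% on A and 36.1% on B. On array B the summed signal of both blood probe sets was 90699.2 and 101126.3 in congenic kidneys, against 98836.7, 83822.6 and 86832.4 in Dahl S kidneys. The summed signal of the macrophage probe sets on array B was 8445.9 and 10443.4 in congenic kidneys, against 12422.2, 7935.9 and 10774.1 in Dahl S kidneys. Of both blood probe sets tested on B, 1 was higher and 1 lower in the congenic kidneys, and neither passed in limma (0 at an unadjusted p under 0.05). The part of RNA quality and of blood in the macrophage order was not tested.

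The strain comparison asked whether the chromosome 10 segment came with another level of these genes, and no leukocyte marker passed. With limma and Benjamini-Hochberg adjustment over all tested probe sets of a design, 0 of 4 marker probe sets on array B and 0 of 3 on array C reached an adjusted p of 0.05, where 0.0912% of 4385 probe sets did on B and 0.0% of 4420 on C. At an unadjusted p under 0.05 there was 1 of 4 on B and 1 of 3 on C, both T cell genes, against 3.49% and 6.2% of all probe sets. The one on B, Sh2d2a, passed the filter only through its Dahl S values, as described below, so nothing is read from that count. The median log2 difference, congenic minus Dahl S, was −0.27 over the 4 marker probe sets on B and 0.06 over the 3 on C, and −0.01 over all tested probe sets on each design. Without Sh2d2a the median on B was −0.21, over the 3 macrophage probe sets. Over all marker probe sets, with no filter on low values, it was −0.12 over 6 on B and −0.03 over 5 on C.

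Of the macrophage genes, 4 of 5 tested probe sets had a lower mean log2 signal in the congenic kidneys, where 51.4% of all probe sets did on B and 52.1% on C. The log2 difference of C1qa was −0.33 (SE 0.24, 95% confidence interval −0.90 to 0.24, limma adjusted p = 0.998). That of Laptm5 was −0.21 on array B (SE 0.39, interval −1.14 to 0.73, limma adjusted p = 0.998) and −0.56 on array C (SE 0.31, interval −1.28 to 0.16, limma adjusted p = 0.853). On array C the congenic mean of Laptm5, 474.6, lay below the filter of 510.3 and its Dahl S mean, 718.7, above it. Laptm5 was thus tested there only through its Dahl S values, and nothing is read from its sign in the count of 4 of 5. Fcer1g gave −0.03 (interval −0.47 to 0.41) and Cd68 0.06 (interval −0.43 to 0.54). All 5 intervals include 0, and that of Laptm5 on array B still allows a level between 0.454 and 1.66 times that of Dahl S. For these 5 probe sets the strains overlapped in every case.

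These means depended on single kidneys. Without Dahl S kidney 1, the highest, the log2 difference was −0.19 for C1qa, −0.028 for Laptm5 on array B, −0.36 for Laptm5 on array C, 0.10 for Fcer1g and 0.17 for Cd68. Without Dahl S kidney 2, the lowest, these were −0.49, −0.51, −0.86, −0.17 and −0.08 in the same order of genes. Without Dahl S kidney 3, Laptm5 on array B stood at −0.08. Without congenic kidney 4 it turned to 0.30, with C1qa at −0.06, Laptm5 on array C at −0.31 and Cd68 at 0.29. Without congenic kidney 5 Laptm5 on array B and C1qa stood at −0.72 and −0.60, and Cd68 at −0.17. No macrophage probe set passed in any of these fits (lowest limma adjusted p = 0.666).

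**Figure D3:**
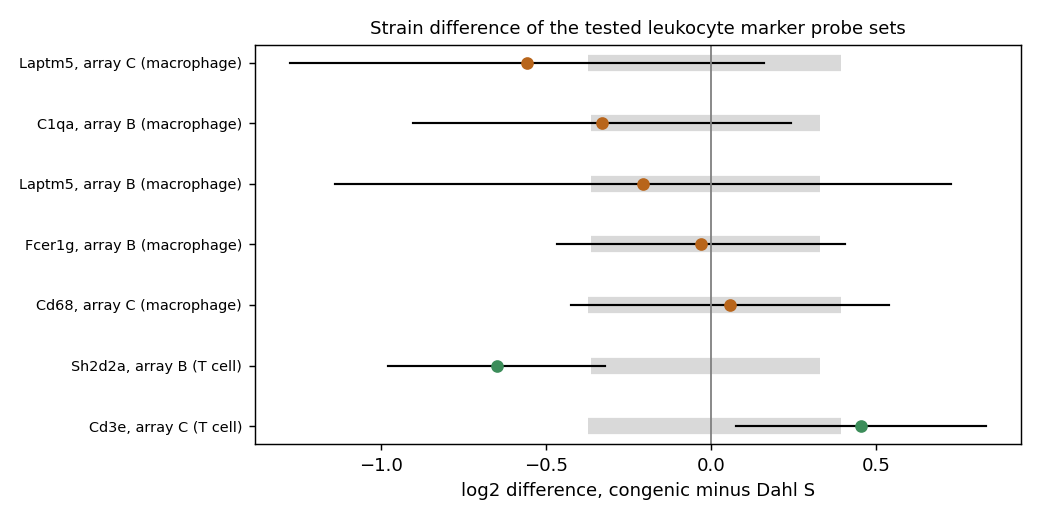
Log2 difference, congenic minus Dahl S (horizontal axis), of the 7 tested leukocyte marker probe sets, with 95% confidence intervals from limma as black lines. Grey bars span the 5th to the 95th percentile of all tested probe sets of the same design. The intervals of Sh2d2a (−0.98 to −0.32) and Cd3e (0.08 to 0.83) leave out 0 before adjustment, those of the 5 macrophage probe sets do not. Sh2d2a, and Laptm5 on array C, were tested only through their Dahl S values.

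Of the T cell genes, Sh2d2a had 1 probe set and it passed the filter, while 1 of 4 passed for Cd3e and 0 of 1 for Cd8a. Sh2d2a, an adapter protein of activated T cells (rc_AA956603_at, array B, chromosome 2), had 377.1 and 363.9 in congenic kidneys 4 and 5, against 625.4, 591.0 and 530.8 in Dahl S kidneys 1, 2 and 3. The strains did not overlap, and the log2 means differed 1.57-fold (log2 difference −0.65, SE 0.14, limma unadjusted p = 0.00246, adjusted p = 0.888). Of all probe sets tested on B, 17.2% had no overlap between strains. Both congenic values lay below the filter of 485.8 and all 3 Dahl S values above it, so Sh2d2a was tested only through its Dahl S values, and a probe set kept in that way had to be lower in the congenic kidneys. Its p is therefore no support for a difference. Its mean over the 5 arrays was 497.6, and it was not tested without Dahl S kidney 1 or 2 or with a filter at the 75th percentile.

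Cd3e, the epsilon chain of the T cell receptor complex, had 4 probe sets on chromosome 8, and they disagreed. The brightest (rc_AI178182_at, array C) had 1313.2 and 1039.0 in congenic kidneys 4 and 5, against 922.0, 861.9 and 781.7 in Dahl S kidneys. The strains did not overlap, which held for 22.4% of all probe sets on C (log2 difference 0.45, SE 0.16, limma unadjusted p = 0.0249, adjusted p = 0.775). Without congenic kidney 4 its log2 difference was 0.28. The other Cd3e probe set of array C (rc_AI137409_at) had 88.5 and 82.4 in congenic kidneys, against 201.3, 67.6 and 205.3 in Dahl S kidneys. Both congenic values and that of kidney 2 lay below the floor, and the strains overlapped. On array B rc_AA945909_at stayed between 68.2 and 86.5, below the floor in all 5 kidneys. The second probe set of the same accession (rc_AA945909_g_at) had 237.8 and 301.8 in congenic kidneys, against 250.0, 316.4 and 252.3 in Dahl S kidneys, above the floor and under the filter. No other Cd3e probe set thus showed the higher congenic level of the brightest.

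Cd8a, a chain of the coreceptor of cytotoxic T cells (X03015_at, array A, chromosome 4), had 43.1 and 130.3 in kidneys 4 and 5 of unsettled strain, against 67.5, 28.9 and 215.0 in Dahl S kidneys. Of these 5 values 3 lay below the floor of 85.1, and its order among the Dahl S kidneys (3, 1, 2) was not that of the macrophage genes. Ptprc, a tyrosine phosphatase on the surface of all leukocytes, did not pass the filter with any of its 4 probe sets (chromosome 13). K03039mRNA_s_at on array A had 56.4 and 84.1 in kidneys 4 and 5, against 73.0, 108.7 and 77.6 in Dahl S kidneys. M10072mRNA_s_at had 12.0 and 20.8, against 95.8, 27.3 and 28.2, with 4 of 5 values below the floor. M25823_s_at had 234.2 and 109.6, against 81.9, 95.8 and 101.8, so that both kidneys of unsettled strain were above the Dahl S values here and below them for M10072mRNA_s_at. Kidney 4 in M25823_s_at was the Ptprc value farthest above a floor. On array C, rc_AI177752_at had 160.6 and 123.1 in congenic kidneys, against 173.6, 138.6 and 77.9 in Dahl S kidneys. The Ptprc probe sets share no order of the kidneys. Without the filter on low values, 0 of the 11 marker probe sets of B and C passed either (limma, lowest adjusted p = 0.53, for Sh2d2a). Of all probe sets, 3 of 8732 passed on B and 2 of 8730 on C in these fits.

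**Figure D4:**
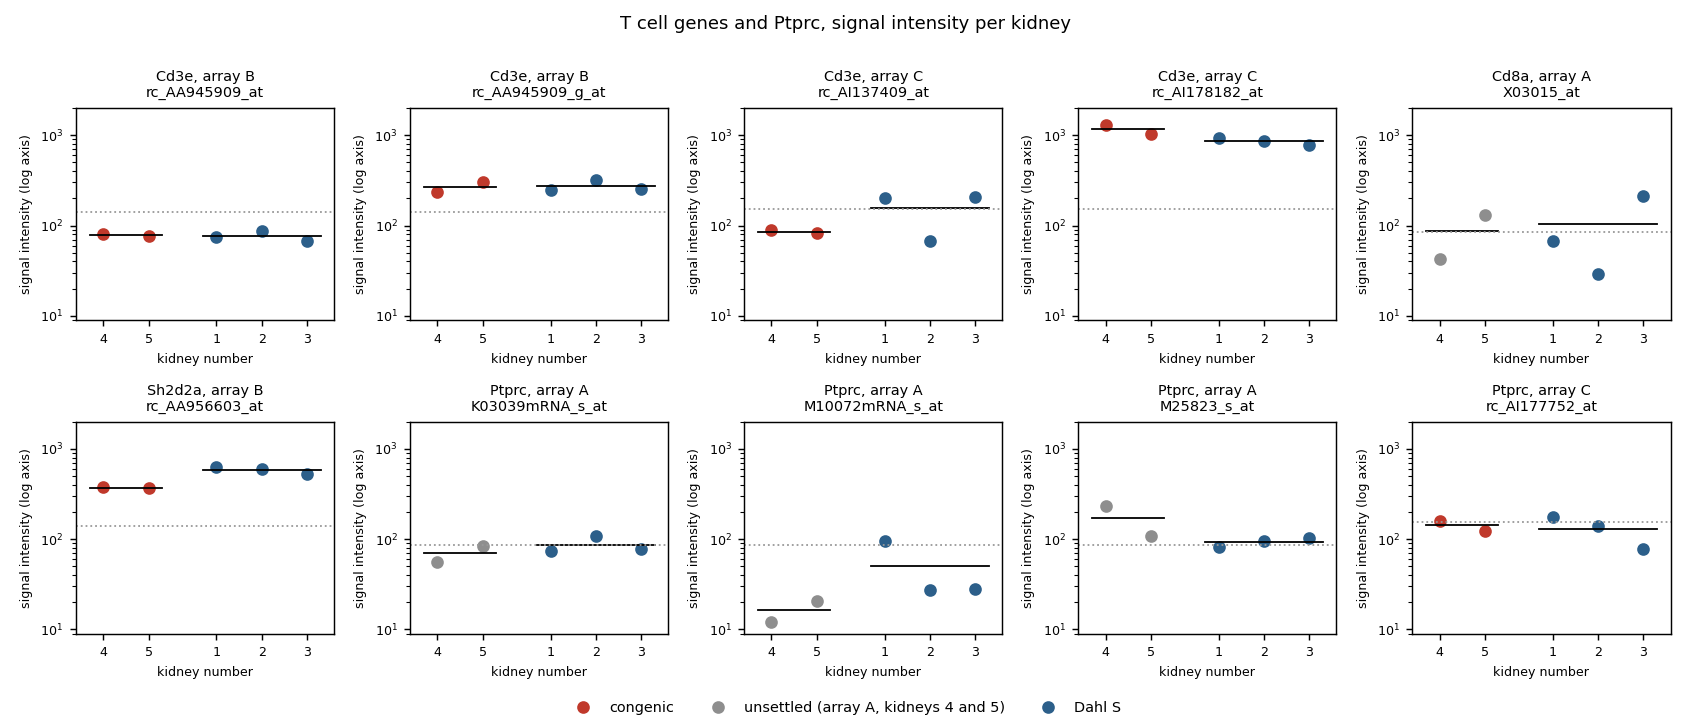
Signal intensity (vertical axis, logarithmic) of the 6 T cell and 4 Ptprc probe sets in kidneys 4 and 5 (red, congenic on arrays B and C; grey, strain unsettled on array A) and in Dahl S kidneys 1 to 3 (blue), with group means as black lines and the floor of the design dotted. Sh2d2a and rc_AI178182_at of Cd3e lie well above the floor in all kidneys, and the Ptprc values lie near or below it except for 234.2 in kidney 4 (M25823_s_at, floor 85.1).

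Other genes of macrophages and myeloid cells were read from a list of 46 genes. On array A 15 of its 32 probe sets passed the filter, with 4 of 12 on B and 2 of 10 on C. Kidney 2 was the lowest Dahl S kidney for 8 of 15 on array A, 1 of 4 on array B and 2 of 2 on array C, and kidney 4 was below kidney 5 for 12 of 15, 4 of 4 and 2 of 2. On array A the median log2 deviation from the Dahl S mean was −0.34 in kidney 4 and 0.0047 in kidney 5, against 0.08, −0.11 and 0.02 in kidneys 1, 2 and 3. On array B it was −0.31 and 0.0062 in congenic kidneys, against 0.30, −0.12 and −0.13, and on array C −0.33 and 0.33, against 0.53, −0.34 and −0.19. Kidney 4 of the wider myeloid list was low on all 3 designs, and the deviation of kidney 2 was larger on C, with 2 probe sets, than on A and B. Its brightest members on A were Cyba, a subunit of the phagocyte NADPH oxidase, and the cathepsins Ctsc and Ctss. Cyba (U18729_at) had 3540.0 and 3409.6 in kidneys 4 and 5, against 5578.7, 4635.9 and 3698.7 in Dahl S kidneys. Ctss (L03201_at) had 1688.5 and 2167.2, against 2387.1, 1684.3 and 2406.8. Ctsc (D90404_at) had 2735.6 and 2745.5, against 3352.4, 2361.7 and 4102.1. In both cathepsins kidney 2 was the lowest of the 5, and in Cyba it was not. From high to low the Dahl S kidneys stood in the order 3, 1, 2 in both cathepsins and 1, 2, 3 in Cyba. The order 1, 3, 2 of the macrophage genes was thus in none of them. None of the 4 tested on B (1 higher, 3 lower, median log2 difference −0.19) or the 2 on C (1 higher, 1 lower) passed in limma, with 0 at an unadjusted p under 0.05 on each design.

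Class II histocompatibility genes, which present antigen on macrophages and B cells, had 18 of 22 probe sets past the filter on array A. Their median log2 deviation there was −0.44 in kidney 4 and 0.0010 in kidney 5, against 0.31, −0.17 and −0.09 in kidneys 1, 2 and 3. On array C, where 6 of 7 passed, it was 0.05 and −0.18 in congenic kidneys 4 and 5, against −0.06, −0.12 and 0.04 in Dahl S kidneys, so that the order of the kidneys on A was not seen there. Cd74, the invariant chain, is also in the B cell list, and its 3 probe sets were the brightest of that list on A. X13044_at had 4924.5 and 7144.9 in kidneys 4 and 5, against 8808.7, 6554.0 and 6842.8 in Dahl S kidneys. X13044_g_at had 4657.7 and 6507.8, against 8309.0, 5808.3 and 6472.8. X14254cds_g_at had 4633.0 and 5384.2, against 6868.6, 7538.0 and 4917.9, with kidney 2 highest. On C, 6 probe sets were tested (2 higher, 4 lower, 0 passed, 1 at an unadjusted p under 0.05), the last being RT1-Bb (rc_AI228153_s_at), with 951.1 and 1206.2 in congenic kidneys, against 1868.1, 1445.7 and 1542.2 in Dahl S kidneys (limma adjusted p = 0.775). On B the 1 tested was Ciita (rc_AI045321_at), the transactivator of these genes, which lies on chromosome 10, with 609.2 and 757.7 against 951.3, 787.5 and 795.7 (adjusted p = 0.998).

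Few other T cell and NK cell genes passed the filter, namely 5 of 29 probe sets of a list of 46 genes on A. On B 2 of 11 passed, and C gave 3 of 13. The brightest on A were Lck (rc_AA800684_at) and Fyn (rc_AI009191_at), kinases of T cell receptor signalling, and Ctla4 (U37121_at), an inhibitory receptor. Lck had 556.6 and 793.0 in kidneys 4 and 5, against 661.8, 817.3 and 1000.7 in Dahl S kidneys. Fyn had 565.5 and 573.3 against 528.1, 611.5 and 653.9, and Ctla4 647.2 and 701.0 against 437.6, 560.7 and 764.3. In all 3 of these genes kidney 1 was the lowest Dahl S kidney. On array B the median log2 deviation of the list's 2 probe sets was instead highest in kidney 1 (0.15, against −0.07 in kidney 2 and −0.08 in kidney 3), and Sh2d2a and Cd3e (rc_AI178182_at) were also highest in kidney 1 among the Dahl S kidneys. Of the 2 tested on B and the 3 on C none passed in limma, and none had an unadjusted p under 0.05. Prkcq, a kinase of T cell activation (rc_AI171093_at, array C), had values that did not overlap, 1134.3 and 1233.2 in congenic kidneys against 1033.1, 1063.2 and 1123.6 in Dahl S kidneys (log2 difference 0.14, limma adjusted p = 0.886). The strains did not overlap for 22.4% of all probe sets tested on C.

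The remaining leukocyte lists gave few tests. Of the B cell list 5 of 6 probe sets passed the filter on A and 0 of 2 on B, while on C 3 of 8 did (2 higher, 1 lower, 0 passed in limma, 0 at an unadjusted p under 0.05). Of the neutrophil and mast cell list 1 of 17 passed on A, the mast cell chymase Cma1 (U67908_at), with 388.8 and 441.6 in kidneys 4 and 5, against 295.9, 556.8 and 347.4 in Dahl S kidneys. For complement genes other than C1qa and C1qb, 6 probe sets were tested on C (1 higher, 5 lower) and 1 on B (higher), with none past the threshold in limma and 0 at an unadjusted p under 0.05. Among them C5 (rc_AI233300_at) had 934.9 and 890.1 in congenic kidneys, against 992.5, 967.4 and 1110.0 in Dahl S kidneys (adjusted p = 0.878). Kidney 2 was the lowest Dahl S kidney for 5 of the 6 on C, 1 of 1 on B and 4 of the 13 that passed the filter on A, where its median log2 deviation was −0.02. Of the recruitment list 3 were tested on C (1 higher, 2 lower, 0 passed, 0 at an unadjusted p under 0.05), among them the chemokine Cxcl12 (rc_AI232340_at), at 6369.4 and 7406.6 against 7499.1, 7876.3 and 8491.4 (limma adjusted p = 0.865).

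Markers of the kidney's own cells were set beside these. On array A the median log2 deviation of the proximal tubule list was 0.01 and −0.02 in kidneys 4 and 5, against −0.02, 0.08 and −0.03 in Dahl S kidneys 1, 2 and 3. That of the loop of Henle and distal tubule list was 0.28 and −0.09, against −0.06, 0.10 and 0.05. Kidney 4 was thus high in the median of the distal list. The 2 macrophage probe sets that passed on array A had −0.41 (C1qb, X71127_at) and 0.01 (Lyz2) in kidney 4, so Lyz2 was not low there. The part of tissue composition was not tested. The endothelium list had 6 tested probe sets on B (3 higher, 3 lower) and 3 on C (1 higher, 2 lower), with 0 passed in limma and 1 at an unadjusted p under 0.05, the endothelial receptor Tie1 (rc_AI176031_at, array C), at 384.5 and 252.1 in congenic kidneys against 818.5, 689.1 and 486.0 in Dahl S kidneys (limma adjusted p = 0.739). Both congenic values of Tie1 lay below the filter of 510.3, so it was tested only through its Dahl S values. Tek (rc_AA957010_at) and Cdh5 (rc_AA850824_g_at), on array B, had non-overlapping values in the other direction, at 1443.3 and 1320.9 against 795.1, 1313.8 and 1050.3 for Tek and at 1056.0 and 987.4 against 917.2, 894.5 and 963.0 for Cdh5 (limma adjusted p = 0.998 each). Of 3 proximal tubule probe sets tested on C (2 higher, 1 lower, 0 passed, 0 at an unadjusted p under 0.05), Ggt1 (rc_AI232192_s_at) did not overlap, at 11134.0 and 10663.5 in congenic kidneys against 11684.3, 12297.5 and 13190.9 in Dahl S kidneys (limma adjusted p = 0.865). Strain values without overlap were found for 17.2% of all probe sets tested on B and 22.4% on C.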

How the data were processed

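Kidney RNA was measured on 15 single-channel arrays of 3 designs. The deposited values are linear signal intensities per probe set; their software is not given in the sources used here, and whether a background was subtracted is unknown. Per the values, the authors had scaled each array, because their 2% trimmed mean was 1000.57 to 1001.35 on every array. The strain came from the description of each sample. Designs were handled separately, with the 59 control probe sets left out, and only probe sets with 1 gene symbol were named. Other genes' symbols were updated to RefSeq (GRCr8) by gene identifier.

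Floor, filter and threshold are given above. Congenic and Dahl S kidneys were compared with limma (version 3.58.1, lmFit and eBayes) under R 4.3.3, two-sided, adjusted by Benjamini-Hochberg over 4385 (B) or 4420 (C) probe sets, which was tested on simulated data. Alternatives were quantile normalisation, median scaling, other floors and filters, an intensity trend with robust variance, array weights and leaving out each kidney. Fold differences are of log2 means. The number of arrays limits precision.

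Named were all probe sets of the 10 genes, from each list the up to 3 members with the smallest p whose strain values did not overlap, and on A the 3 brightest of each list of a leukocyte cell type. Hbb, Slc4a1 and Slc34a1 were named after their values were seen. The genes and lists were chosen with earlier results of these data known.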

Additional observations from a re-analysis of the deposited data

Results flagged for a closer look

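On array A the Ptprc probe set M25823_s_at had a signal of 234.2 in kidney 4 and of 109.6 in kidney 5, whose strain is unsettled and which entered no comparison, and both lay above the highest of the 3 Dahl S values, 101.8. The probe set did not pass the filter on low values, and the other Ptprc probe sets of array A did not have kidneys 4 and 5 above Dahl S.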

How the results depend on the processing

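No leukocyte marker probe set passed the threshold on array B or C in any of the 13 alternatives per design. Over all probe sets of array B, against 4 calls, there was 1 call with quantile normalisation, with median scaling, with a floor at the 10th or the 40th percentile, with a filter at the 75th percentile and with array quality weights, and leaving out 1 kidney gave 0 to 31. On array C, against 0 calls, there were 2 without a filter on low values, 1 with an intensity trend and robust variance, and 0 to 35 when 1 kidney was left out. The highest counts, 31 and 35, came without congenic kidney 5, which leaves 1 congenic array that is assumed to vary like the Dahl S arrays. The median log2 difference of the marker probe sets on array B was −0.61 to −0.028 when 1 kidney was left out, lowest without congenic kidney 5 and highest without Dahl S kidney 1, and on array C −0.17 to 0.28. Sh2d2a was not in the fits without Dahl S kidney 1 or 2, so the range on B also holds a change of members. Without a filter on low values the median was −0.12 on B and −0.03 on C.

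The sign of a log2 difference turned in 4 cases when 1 kidney was left out: Laptm5 on array B reached 0.30 without congenic kidney 4 (range −0.72 to 0.30), Fcer1g 0.10 without Dahl S kidney 1 (range −0.17 to 0.10), and Cd68 −0.08 without Dahl S kidney 2 and −0.17 without congenic kidney 5 (range −0.17 to 0.29). C1qa, Cd3e (rc_AI178182_at) and Laptm5 on array C kept their sign wherever they were tested. Nothing is read from the sign of Sh2d2a or of Laptm5 on array C, because a probe set kept through its Dahl S values had to be lower in the congenic kidneys. The order 1, 3, 2 of the Dahl S kidneys held for 7 of 7 macrophage probe sets under both other scalings, a check chosen after seeing the data. The other floors could not change this order, because the lowest signal of these probe sets, 394.1, lay above the highest floor, 339.86. No paired analysis was possible because the strains share no kidney number.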
